A study of Mus musculus with 12 samples.

Results

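Reactive oxygen species are made and removed by a small set of enzymes, and 10 of their genes were followed here in podocytes, the epithelial cells that wrap the capillaries of the kidney filter. The genes were chosen by symbol and all 10 were found among the 22290 genes listed in the count tables of both ages. They encode the NADPH oxidase subunits Nox4, Cyba and Cybb, the superoxide dismutases Sod1, Sod2 and Sod3, catalase (Cat), the glutathione peroxidases Gpx1 and Gpx3, and the thioredoxin-interacting protein Txnip. RNA was sequenced from primary podocytes of knockout mice (Cre+/Nsd2fl/fl) and control mice (Cre-/Nsd2fl/fl), with 3 libraries in each of 4 groups: knockouts and controls at 20 weeks of age, and knockouts and controls at 28 weeks. All mice carried floxed Nsd2 alleles and were made diabetic by high-fat diet and streptozotocin (HFD/STZ), so no group was without diabetes. The labels describe the knockout as specific to podocytes, do not name the promoter of the Cre transgene, and leave unsaid whether each library had its own mouse. The p-values therefore reflect differences among libraries that may be technical in part.

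NADPH oxidases move electrons from NADPH across a membrane to oxygen. Nox4 is the main catalytic subunit of kidney cells and releases mostly hydrogen peroxide, Cybb (gp91phox, also called NOX2) is the catalytic subunit of phagocytes, and Cyba (p22phox) is the membrane partner that both need. Superoxide dismutases turn superoxide into hydrogen peroxide in the cytosol (Sod1), in mitochondria (Sod2) and outside the cell (Sod3), and catalase and the selenium-containing glutathione peroxidases turn hydrogen peroxide into water. Txnip binds and inhibits thioredoxin and is known for its strong induction by glucose. The series asks how loss of Nsd2, a methyltransferase for lysine 36 of histone H3, changes podocyte transcription at an earlier and a later stage of diabetic kidney disease.

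Total counts per library ran from 31405349 to 38989180. Gene levels are given in CPM, counts scaled to the library size, on 1 TMM scale for the 12 libraries. A log2 fold change is positive where the knockouts were higher. Nsd2 itself was at 51.9, 34.7 and 45.1 CPM in knockouts 1 to 3 at 20 weeks, against 95.1, 65.7 and 78.0 CPM in controls 1 to 3. Its level at 28 weeks was 34.2, 34.3 and 43.5 CPM in knockouts and 85.0, 80.0 and 81.7 CPM in controls. The log2 fold change was -0.88 (SE 0.21, adjusted p = 0.0402) at 20 weeks and -1.11 (SE 0.13, adjusted p = 0.00431) at 28 weeks. The call at 20 weeks ended on leaving out any library but knockout 1 (log2 fold change -1.01 to -0.72, adjusted p 0.0273 to 0.164 over the 6 fits). Keeping genes at 1 CPM in 3 libraries ended it as well (-0.93, adjusted p = 0.0562). The opposite-strand gene Nelfa overlaps 60 exon bases of Nsd2. The coefficient of variation between controls 2 and 3 at 28 weeks was 0.0472, against 0.225 to 0.413 in all other pairs within a group, so errors at 28 weeks may be too small. The label was checked against podocyte markers: the summed level of 10 of them was 2413 to 3519 CPM in knockouts and 779 to 1553 CPM in controls at 20 weeks, and 641 to 2613 CPM in knockouts and 1183 to 2370 CPM in controls at 28 weeks. Of these 10, 6 were called higher and 1 lower in knockouts at 20 weeks, where 4.79% and 5.13% of all genes were. At 28 weeks 0 were called higher and 2 lower, where 9.33% and 11.9% were. Mesangial and smooth muscle markers summed to 2795 to 15268 CPM, above the podocyte sum in every library. Sums over different genes do not measure shares of cells, so the check does not settle how pure the podocytes were. Nphs1, which encodes nephrin, was between 0.929 and 14.8 CPM in all 12 libraries.

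Per transcript length, the 10 genes spanned a wide range of levels, though most neighbours in rank overlapped. Taking the authors' FPKM values over the 12 libraries, Sod1 was highest with a median of 343 (257 to 474 FPKM). It was followed by Gpx1 with 196, Cyba with 129, Gpx3 with 103 and Txnip with 89.3 FPKM, and among these 5 genes the ranges of neighbours overlapped. Cat had a median of 57.0 FPKM (44.0 to 69.9) and lay wholly below Txnip (75.9 to 103.8 FPKM). Nox4, the oxidase catalytic subunit of these cells, had a median of 37.1 FPKM (17.7 to 40.4), below every library of Cat, and overlapped with Sod2 at 18.6 FPKM (14.6 to 24.7). Sod3 and Cybb were near the bottom, at medians of 0.767 and 0.754 FPKM, and overlapped with each other. Sod3 varied 8.77-fold and Cybb 10.4-fold between their lowest and highest library, whereas Txnip varied 1.37-fold, the least of the 10 genes.

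**Figure D1:**
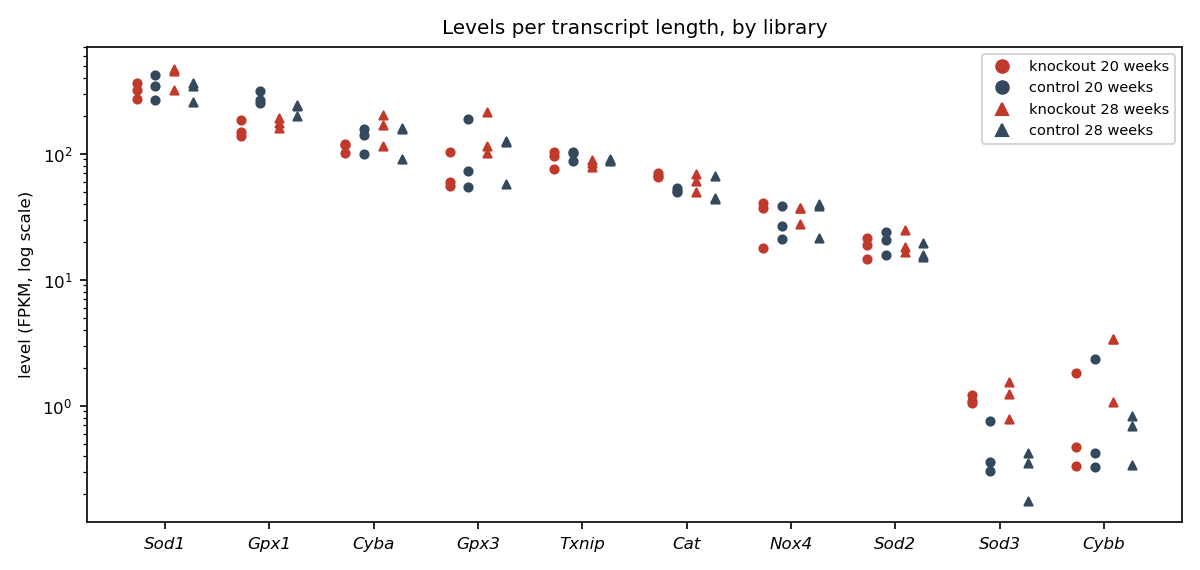
Level of each gene in each library as FPKM on a log axis, with genes ordered by their median over 12 libraries. Points are libraries: circles are 20 weeks, triangles 28 weeks, red knockouts and dark blue controls; Sod1 is highest at a median of 343 FPKM, and Sod3 and Cybb lie below 4 FPKM in every library.

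At 20 weeks Gpx1 fell in the knockouts and the other 9 genes did not pass the test, and at 28 weeks Cybb and Sod3 rose and the other 8 did not pass. A gene was called at an adjusted p below 0.05 in edgeR's quasi-likelihood test over all genes. That makes 1 of 10 at 20 weeks (10.0%), where 9.92% of all 14853 genes tested were called, and 2 of 10 at 28 weeks (20.0%), where 21.2% of 15011 were called, so both shares were close to those of all genes. The median log2 fold change of the 10 genes was -0.03 at 20 weeks, beside 0.01 over all genes, and 0.33 at 28 weeks, beside 0.07. Knockout and control libraries did not overlap for 3 of 10 genes at 20 weeks (Sod3, Cat and Gpx1), where 32.2% of all genes did not overlap (16.2% with the knockouts higher and 16% lower). At 28 weeks they did not overlap for 3 of 10 (Cybb, Sod3 and Gpx1), where 42% of all genes did not (18.3% higher and 23.7% lower). Each call depended on single libraries, as given with each gene, and the 2 calls at 28 weeks ended when controls 2 and 3 were summed into 1 library (adjusted p = 0.087 for Cybb and 0.0543 for Sod3).

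**Figure D2:**
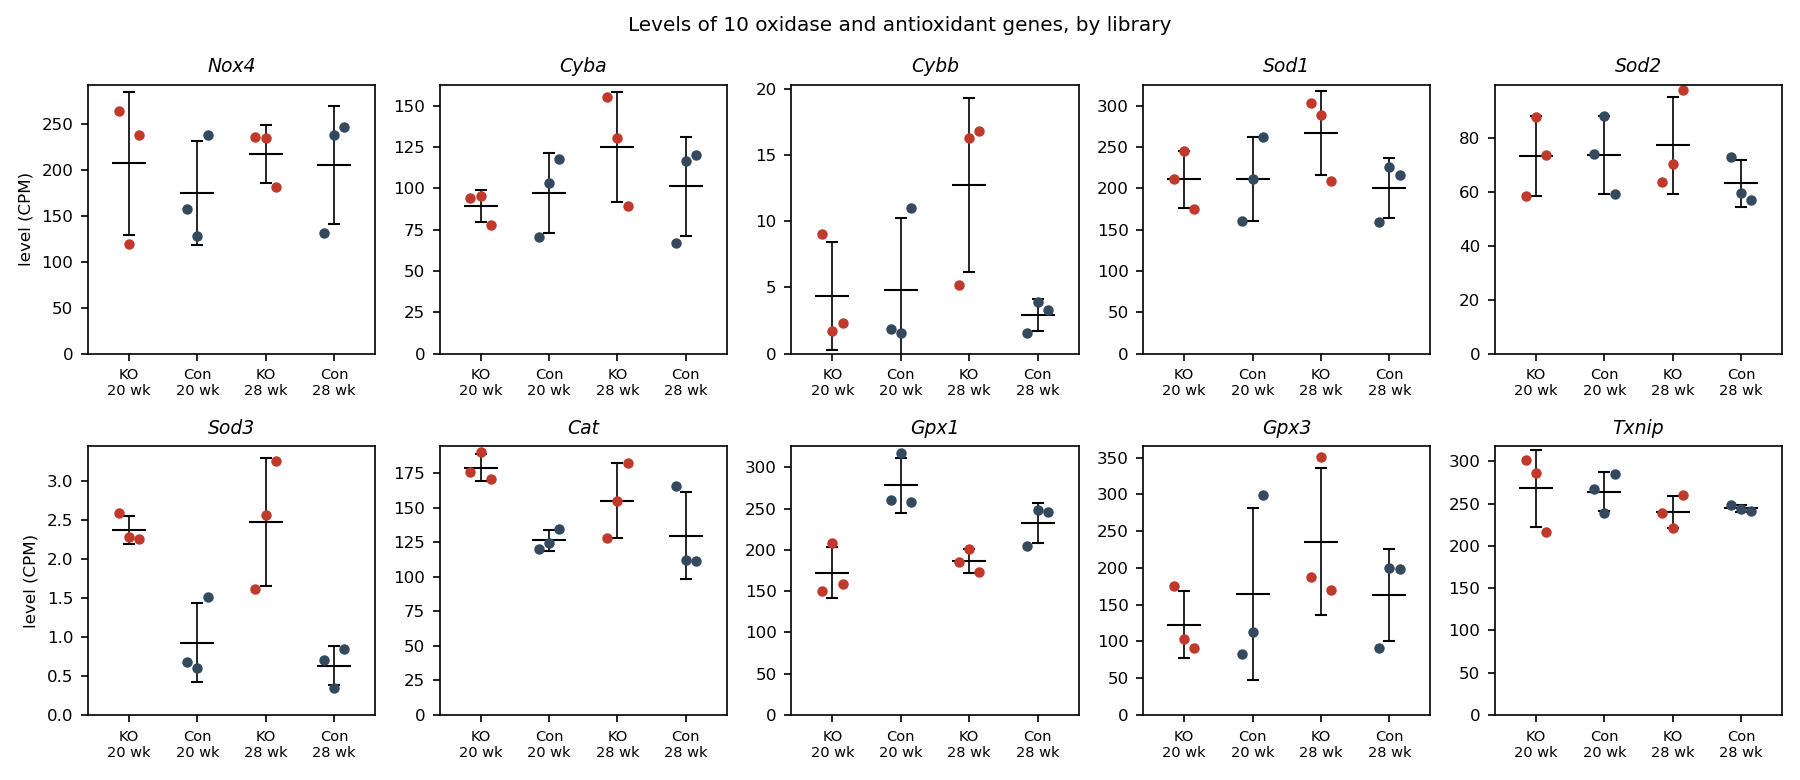
Level of each of the 10 genes in CPM (linear axis from 0), with knockouts (KO, red) and controls (Con, dark blue) at 20 and 28 weeks. Points are libraries 1 to 3 from left to right, the horizontal line is the mean and the bar is 1 SD, which is not drawn below 0. Gpx1 is lower in all knockouts than in any control of its age, and Sod3 is higher.

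**Figure D3:**
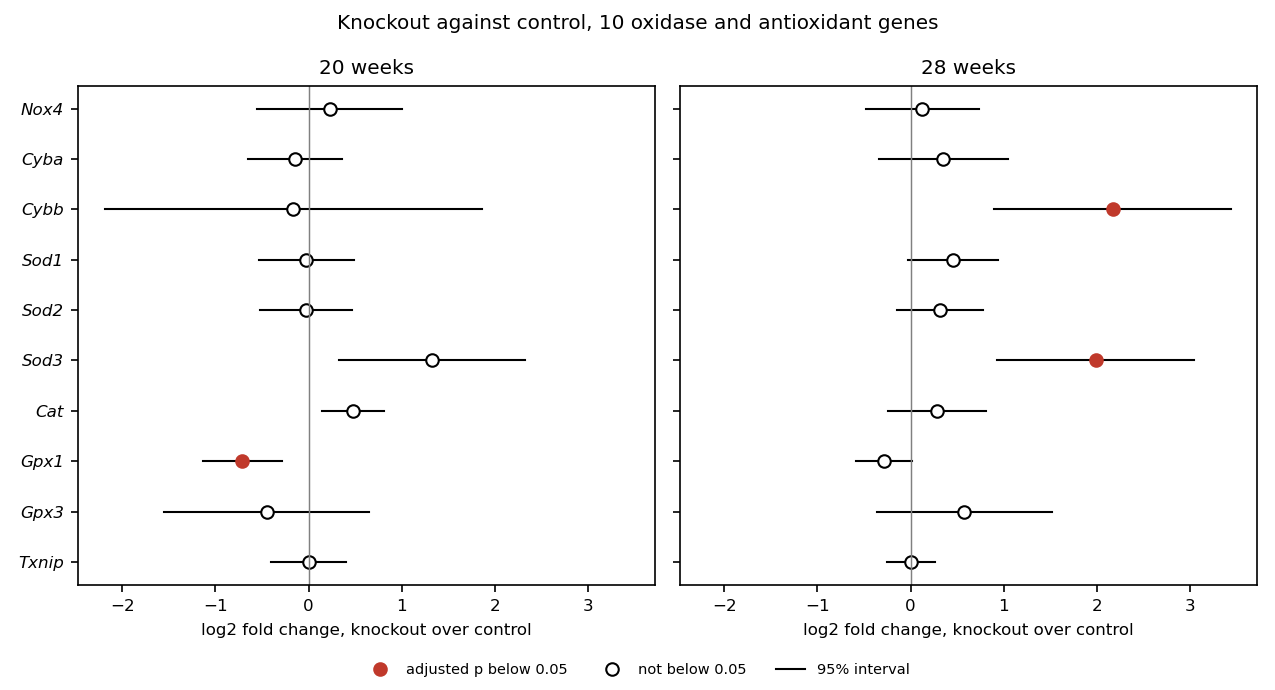
Log2 fold change of knockout over control with its 95% interval, not adjusted for the number of genes, at 20 weeks (left) and 28 weeks (right). Filled red points had an adjusted p below 0.05: Gpx1 at -0.71 at 20 weeks, and Cybb at 2.17 and Sod3 at 1.99 at 28 weeks.

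The start regions of Gpx1 and Cybb are shown because these are called genes with an entry in the RefSeq table of start regions (GRCm38.p6, 250 bases before to 50 after the start); 9 of the 10 genes had an entry there, and Sod3 had none. These RefSeq starts lie inside the gene bounds that GENCODE M21 gives for Gpx1 and Cybb, which are the bounds given with each gene. Capitals mark a GC box (GGGCGG or its reverse complement) in Gpx1 and the core GAGGAA of PU.1 sites, on the reverse strand, in Cybb.
Gpx1, chr9:108338830-108339129, plus strand: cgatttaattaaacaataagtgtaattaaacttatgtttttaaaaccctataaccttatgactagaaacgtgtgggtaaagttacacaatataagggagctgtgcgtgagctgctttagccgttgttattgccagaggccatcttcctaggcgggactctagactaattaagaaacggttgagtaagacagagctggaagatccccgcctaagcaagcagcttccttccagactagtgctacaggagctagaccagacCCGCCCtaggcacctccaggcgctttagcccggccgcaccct
Cybb, chrX:9469275-9469574, minus strand: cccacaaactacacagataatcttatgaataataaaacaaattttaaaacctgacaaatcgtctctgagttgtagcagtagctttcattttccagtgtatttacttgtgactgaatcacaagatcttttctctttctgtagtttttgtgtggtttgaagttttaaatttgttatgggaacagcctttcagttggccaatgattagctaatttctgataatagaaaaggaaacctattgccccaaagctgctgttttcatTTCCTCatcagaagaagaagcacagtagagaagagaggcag
These regions had the lowest GC content of the 9, at 47.0% for Gpx1 and 35.3% for Cybb, against 56.3% to 68.3% in the other 7. The median over all 32851 regions of the table was 52.7%, and 3.98% of them had less GC than that of Cybb. A GC box was found on either strand in 8 of the 9 regions, all but that of Cybb, and in 35.7% of all regions. GAGGAA was found on either strand in 4 of the 9 (Cybb, Gpx3, Sod2 and Cat) and in 28.3% of all regions. The core of the antioxidant response element, TGACNNNGC on either strand, was found in that of Sod1 and in 12.4% of all regions, and the E-box CACGTG was in none of the 9 and in 7.15% of all. A match of letters is no evidence that a factor binds there.

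Nox4 (chr7:87246096-87398710, plus strand) did not pass at either age. It was at 264, 119 and 237 CPM in knockouts 1 to 3 and at 157, 128 and 237 CPM in controls at 20 weeks, and at 235, 235 and 181 CPM in knockouts and 131, 237 and 246 CPM in controls at 28 weeks. The groups overlapped at both ages, and the log2 fold change was 0.23 (95% interval -0.55 to 1.01, adjusted p = 0.748) at 20 weeks and 0.13 (-0.48 to 0.73, adjusted p = 0.774) at 28 weeks. Cyba (chr8:122424776-122432930, minus strand) was at 93.8, 95.5 and 77.8 CPM in knockouts and 70.5, 103 and 118 CPM in controls at 20 weeks. At 28 weeks Cyba was at 155, 130.4 and 89.3 CPM in knockouts and 66.8, 117 and 119.9 CPM in controls. These groups overlapped too, with a log2 fold change of -0.15 (-0.65 to 0.36, adjusted p = 0.748) at 20 weeks and 0.35 (-0.34 to 1.04, adjusted p = 0.446) at 28 weeks.

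Cybb (chrX:9435252-9487771, minus strand), the phagocyte catalytic subunit, rose 4.50-fold in the knockouts at 28 weeks. It was at 5.17, 16.2 and 16.8 CPM in knockouts 1 to 3, against 1.57, 3.87 and 3.25 CPM in controls 1 to 3. Knockouts 2 and 3 were far above knockout 1, which lay above the highest control. The log2 fold change was 2.17 (SE 0.53, adjusted p = 0.032). The call was kept without knockout 1 (2.52, adjusted p = 0.0125). It was lost without control 1 (1.89, adjusted p = 0.0839), control 2 (2.42, 0.0756), control 3 (2.25, 0.0987), knockout 2 (1.93, 0.11) or knockout 3 (1.89, 0.0938). A single model of all 12 libraries lost it too (2.14, adjusted p = 0.111). At 20 weeks Cybb was at 9.06, 1.70 and 2.31 CPM in knockouts and 1.88, 1.52 and 11.0 CPM in controls, so that 1 library of each genotype stood high. The log2 fold change there was -0.17 (95% interval -2.19 to 1.86, adjusted p = 0.938), and 1.34 (adjusted p = 0.353) without control 3.

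Some leukocyte markers were higher beside Cybb at 28 weeks. Of 12 such markers 4 (Adgre1, Fcer1g, Lyz2 and Tyrobp) were called higher in the knockouts at 28 weeks and none lower, where 9.33% of all genes were called higher. Adgre1 was at 6.24, 6.74 and 8.71 CPM in knockouts and 1.15, 1.58 and 1.74 CPM in controls there (log2 2.31, adjusted p = 0.00389). Tyrobp was at log2 1.88 (adjusted p = 0.0358) and Fcer1g at 1.45 (adjusted p = 0.0238). None of the 12 was called at 20 weeks by edgeR, with 3 at an unadjusted p below 0.05 and 2 called by DESeq2. The median log2 fold change of the 12 was -0.53 at 20 weeks and 1.34 at 28 weeks. Their summed level was 638 to 883 CPM in knockouts and 94.0 to 123 CPM in controls at 28 weeks, and 262 to 467 CPM in knockouts and 100.5 to 413 CPM in controls at 20 weeks. None of the 12 was at 0 in all libraries of a group. Lyz2, the lysozyme of myeloid cells, was the most abundant of the 12, at 490.2, 644 and 798 CPM in knockouts and 47.3, 52.6 and 49.8 CPM in controls at 28 weeks. The sum of the 12 was 638, 792 and 883 CPM in these knockouts, so it mostly follows Lyz2 there. Csf1r, also among the 12, was lower in knockouts without passing, at log2 -1.10 (adjusted p = 0.0679) at 20 weeks and -0.49 (adjusted p = 0.33) at 28 weeks. At 28 weeks the complement gene C1qb was at 33.8, 34.2 and 7.29 CPM in knockouts and 3.44, 11.1 and 10.5 CPM in controls. Ptprc, the CD45 antigen of all leukocytes, was at 10.9, 1.93 and 3.66 CPM in knockouts and 1.37, 5.05 and 5.53 CPM in controls. Neither gene passed there, with log2 1.65 (adjusted p = 0.139) for C1qb and 0.52 (adjusted p = 0.68) for Ptprc. Control 3 at 20 weeks, the highest control for Cybb, was also highest for C1qb (51.6 CPM, against 4.32 and 2.99 CPM in controls 1 and 2) and Ptprc (10.7 CPM, against 2.25 and 5.17 CPM). In bulk samples more cells of a type and more RNA per cell cannot be told apart, and the part of these cells in the difference of Cybb was not tested.

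Of the other oxidase subunits on the pathway list, 1 of 8 tested fell at 20 weeks (Noxo1), where 5.13% of all genes did, and 1 of 7 tested rose at 28 weeks (Ncf4), where 9.33% did. Ncf4 (p40phox) was called at 28 weeks at 1.25, 1.16 and 0.842 CPM in knockouts and 0.424, 0.327 and 0.435 CPM in controls (log2 1.48, SE 0.34, adjusted p = 0.0265). That call was kept without knockout 3 and ended without any other library (log2 1.33 to 1.55, adjusted p 0.0567 to 0.115), with controls 2 and 3 summed (1.44, 0.0968) and in the model of 12 libraries (1.45, 0.285). Ncf1 (p47phox), the organiser, did not pass at 28 weeks, at 7.21, 5.36 and 3.19 CPM in knockouts and 1.75, 3.17 and 3.10 CPM in controls (log2 1.02, adjusted p = 0.116). Noxo1, an organiser homologous to Ncf1 that works with NOX1, was lower in the knockouts at 20 weeks, at 1.56, 1.24 and 1.03 CPM against 4.16, 4.79 and 2.60 CPM in controls (log2 -1.61, SE 0.35, adjusted p = 0.0287). The call of Noxo1 ended without control 1 (-1.58, adjusted p = 0.0987), control 2 (-1.40, 0.113), knockout 2 (-1.58, 0.0885) or knockout 3 (-1.46, 0.103). At 28 weeks Noxo1 was lower without passing, at 2.56, 0.771 and 1.97 CPM in knockouts and 3.20, 4.57 and 4.15 CPM in controls (log2 -1.13, adjusted p = 0.123). Ncf4 did not pass at 20 weeks (log2 -1.26, adjusted p = 0.53).

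**Figure D4:**
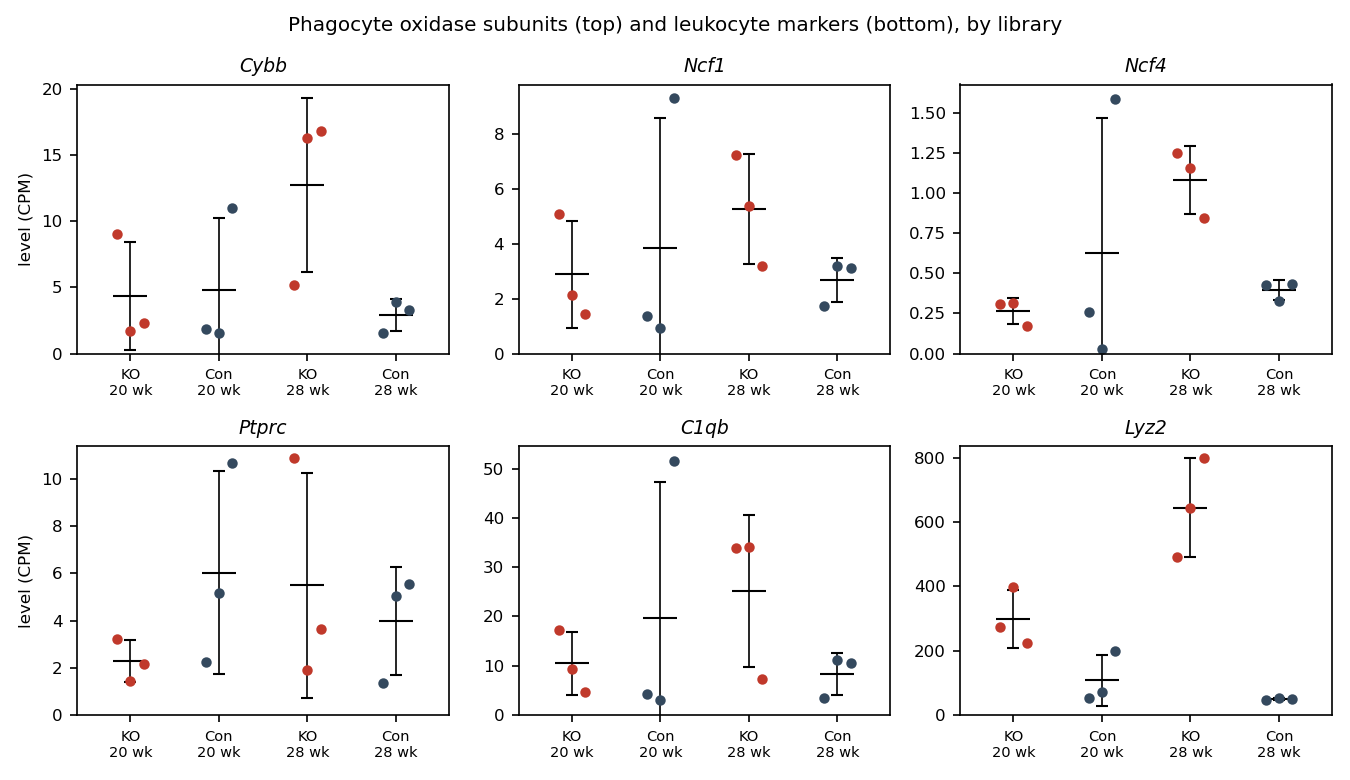
Levels in CPM (linear axes from 0) of the phagocyte oxidase subunits Cybb, Ncf1 and Ncf4 (top) and of the leukocyte markers Ptprc, C1qb and Lyz2 (bottom). Points are libraries 1 to 3 from left to right, the horizontal line is the mean and the bar is 1 SD, which is not drawn below 0. Cybb, Ncf1, Ncf4, Ptprc and C1qb share a high control 3 at 20 weeks, and Lyz2 separates knockouts from controls at both ages.

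Among the dismutases, the extracellular enzyme Sod3 (chr5:52363791-52371418, plus strand) was the one that passed. At 28 weeks Sod3 was at 1.61, 2.57 and 3.25 CPM in knockouts 1 to 3 (53, 80 and 112 counts), against 0.699, 0.352 and 0.845 CPM in controls (28, 14 and 33 counts). It rose 3.96-fold (log2 1.99, SE 0.44, adjusted p = 0.0236). At 20 weeks it was at 2.58, 2.28 and 2.25 CPM in knockouts and 0.681, 0.598 and 1.51 CPM in controls, which did not overlap either, and it did not pass (log2 1.33, SE 0.43, adjusted p = 0.0989). The call at 28 weeks was kept without knockout 1 (adjusted p = 0.021). It was lost on dropping control 1 (2.09, adjusted p = 0.0627), control 2 (1.69, 0.07), control 3 (2.23, 0.063), knockout 2 (1.95, 0.0693) or knockout 3 (1.72, 0.0649). At 20 weeks Sod3 was called without control 3 (log2 1.87, adjusted p = 0.0341) and by DESeq2 (adjusted p = 0.0262). Sod3 is made by vascular smooth muscle cells, and of 10 mesangial and smooth muscle markers 8 were called higher in knockouts at 20 weeks, where 4.79% of all genes were, and 5 at 28 weeks, where 9.33% were. Their summed level was 9693 to 13818 CPM in knockouts and 4304 to 4747 CPM in controls at 20 weeks, and 6761 to 15268 CPM in knockouts and 2795 to 3251 CPM in controls at 28 weeks. None of these markers was at 0 in a whole group, and their part in the difference of Sod3 was not tested.

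The intracellular dismutases did not pass. Sod1 (chr16:90220754-90226329, plus strand) was at 212, 245 and 175 CPM in knockouts and 161, 211 and 262 CPM in controls at 20 weeks. The log2 fold change was -0.03 (95% interval -0.54 to 0.48, adjusted p = 0.963). At 28 weeks Sod1 was at 304, 289 and 209 CPM in knockouts and 159, 226 and 217 CPM in controls, with 1 knockout inside the range of the controls (log2 0.46, -0.03 to 0.94, adjusted p = 0.167). Sod2 (chr17:13006846-13040063, plus strand), the manganese enzyme of mitochondria, was at 58.4, 87.7 and 73.6 CPM in knockouts and 73.9, 88.1 and 59.0 CPM in controls at 20 weeks (log2 -0.03, -0.52 to 0.46, adjusted p = 0.956). Sod2 at 28 weeks was at 63.7, 70.4 and 97.6 CPM in knockouts and 73.0, 59.3 and 56.8 CPM in controls (log2 0.31, -0.15 to 0.78, adjusted p = 0.307).

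Gpx1 (chr9:108338903-108340343, plus strand), the cytosolic and mitochondrial glutathione peroxidase, fell in the knockouts at 20 weeks. It was at 150.5, 208 and 159 CPM in knockouts 1 to 3, against 260.0, 317 and 257 CPM in controls 1 to 3. All knockouts were below all controls, and the level fell to 0.611 of that in controls (log2 -0.71, SE 0.18, adjusted p = 0.0478). At 28 weeks Gpx1 was at 186, 201 and 173 CPM in knockouts and 204, 248 and 246 CPM in controls. The groups again did not overlap, though knockout 2 and control 1 nearly met, and the gene did not pass (log2 -0.28, 95% interval -0.59 to 0.02, adjusted p = 0.168). The call at 20 weeks was kept without knockout 2 (adjusted p = 0.0461). It was gone without control 1 (-0.80, adjusted p = 0.0749), control 2 (-0.58, 0.2), control 3 (-0.76, 0.0854), knockout 1 (-0.62, 0.101) or knockout 3 (-0.63, 0.157). Testing all genes with no filter on low counts ended it too (-0.67, adjusted p = 0.0638). Markers of parietal and simple epithelial cells were lower beside it: 4 of 10 were called lower and none higher at 20 weeks, where 5.13% of all genes were called lower. Their summed level was 480 to 2578 CPM in knockouts and 3834 to 6523 CPM in controls. It was highest among the knockouts in knockout 1, where Gpx1 was lowest. At 28 weeks, where Gpx1 did not pass, 3 of these 10 markers were called lower and none higher. Over all genes 11.9% were called lower there. The median log2 fold change of the 10 was -1.80 at 20 weeks and -2.38 at 28 weeks. Their sum at 28 weeks was 7282, 195 and 944 CPM in knockouts 1 to 3 and 4981 to 8151 CPM in controls. Of 10 markers of the loop, distal tubule and collecting duct, 9 were listed. Of these, 5 were tested at 20 weeks and 4 were called lower (median log2 fold change -5.39), where 5.13% of all genes were. The summed level of the 9 was 9.22 to 14.7 CPM in knockouts and 297 to 683 CPM in controls. In each of knockouts 2 and 3, 6 of the 9 were at 0. Mal alone was at 10.3, 8.81 and 14.5 CPM in knockouts 1 to 3 and 428, 678 and 286 CPM in controls. The sum therefore mostly follows Mal. At 28 weeks 2 of the 8 tested were called lower, where 11.9% of all genes were. The sum of the 9 at 28 weeks was 383, 5.04 and 29.2 CPM in knockouts 1 to 3 and 200 to 620 CPM in controls. Mal was at 352, 3.79 and 28.1 CPM in these knockouts and 193, 595 and 599 CPM in these controls. None of the listed markers of either kind was at 0 in a whole group, and their part in the difference of Gpx1 was not tested.

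Gpx3 (chr11:54902453-54910377, plus strand), the secreted glutathione peroxidase that the kidney releases to plasma, varied more than its groups differed. It was at 175, 103 and 90.6 CPM in knockouts and 82.8, 113 and 299 CPM in controls at 20 weeks (log2 -0.45, 95% interval -1.55 to 0.65, adjusted p = 0.639). Control 3 was the highest library there, and without it the log2 fold change was 0.31 (adjusted p = 0.664). At 28 weeks Gpx3 was at 187, 351 and 169.6 CPM in knockouts and 91.2, 200.3 and 198 CPM in controls (log2 0.58, -0.36 to 1.52, adjusted p = 0.356). Proximal tubule cells are the main source of Gpx3 in the kidney. Of 10 markers of these cells 7 were listed in both tables, and Slc34a1, Slc22a6 and Acsm2 were not. The summed level of the 7 was 3.29 to 9.89 CPM in knockouts and 11.0 to 17.7 CPM in controls at 20 weeks, and 3.50 to 8.27 CPM in knockouts, with Miox at 0, and 8.54 to 14.2 CPM in controls at 28 weeks. Of 3 markers tested, 1 was called lower at 20 weeks (Aqp1, log2 -2.42, adjusted p = 0.0269), where 5.13% of all genes were, and 0 at 28 weeks. The part of these cells in the level of Gpx3 was not tested.

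Cat (chr2:103453849-103485160, minus strand), the peroxisomal catalase, was at 176, 190.0 and 171 CPM in knockouts 1 to 3 and at 119.8, 125 and 135 CPM in controls at 20 weeks. The groups lay well apart and each was tight, yet the gene did not pass over all genes (log2 0.48, SE 0.15, 95% interval 0.15 to 0.81, adjusted p = 0.0785), while DESeq2 called it (adjusted p = 0.0262). At 28 weeks Cat was at 128, 155 and 182 CPM in knockouts and 166, 112 and 111 CPM in controls, which overlapped through control 1 (log2 0.28, -0.25 to 0.81, adjusted p = 0.425).

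Txnip (chr3:96557957-96561883, plus strand) was nearly level between the genotypes. It was at 302, 286 and 216 CPM in knockouts and 267, 239 and 285 CPM in controls at 20 weeks, and at 239, 222 and 259.8 CPM in knockouts and 249, 243 and 241 CPM in controls at 28 weeks. The log2 fold change was 0.0005 (95% interval -0.41 to 0.41, adjusted p = 0.999) at 20 weeks and 0.0045 (-0.25 to 0.26, adjusted p = 0.983) at 28 weeks. Its exons share 606 bases with the antisense gene Gm15441, whose counts summed to 767 over all 12 libraries. No source used here gives the strand setting of the counting, so reads of the shared bases cannot be told apart. None of the other 9 genes shares exon bases with another gene in GENCODE M21.

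No gene of the 10 passed a test for a change with age. In edgeR's model of 12 libraries, 0 of 10 passed for the change of the knockout effect between 20 and 28 weeks, as for 0% of all 15662 genes tested (1428 at an unadjusted p below 0.05, and 25 called by DESeq2), and DESeq2 called 0 of 10. At an unadjusted p below 0.05 there was 1 of 10, Gpx1 (difference of log2 fold changes 0.44, SE 0.20, adjusted p = 0.545). The difference was 2.30 for Cybb (SE 1.20, adjusted p = 0.567) and 0.66 for Sod3 (SE 0.61, adjusted p = 0.702), so the passing of these genes at 1 age alone does not show that the ages differ. Between 28 and 20 weeks 0 of 10 passed within knockouts and 0 of 10 within controls, by either tool, with 0 of 10 at an unadjusted p below 0.05 in each. Over all genes edgeR called 0% within knockouts (1759 at an unadjusted p below 0.05, and 36 called by DESeq2) and 0% within controls (466, and 1 called by DESeq2). The largest of these values in size were 1.57 for Cybb (SE 0.85, adjusted p = 0.475) and 0.99 for Gpx3 (SE 0.50, adjusted p = 0.456) within knockouts, and -0.73 for Cybb (SE 0.84, adjusted p = 0.9999) within controls. Age coincides with the deposited table, so handling of the tables and age cannot be told apart.

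Genes of the same pathways were read from 6 lists holding 65 different genes. Of 56 tested at 20 weeks 1 rose and 4 fell, and of 55 tested at 28 weeks 7 rose and 6 fell, where 4.79% and 9.33% of all genes rose and 5.13% and 11.9% fell. Glutathione reductase (Gsr), which restores the glutathione that Gpx1 uses, fell more than any other called gene of these lists at both ages. It was at 44.6, 44.2 and 39.2 CPM in knockouts and 126, 144 and 133 CPM in controls at 20 weeks, and at 55.6, 35.3 and 46.4 CPM in knockouts and 174, 138 and 139.7 CPM in controls at 28 weeks. All knockouts lay far below all controls, with log2 fold changes of -1.68 (SE 0.15, adjusted p = 0.00267) and -1.69 (SE 0.21, adjusted p = 0.00508). Both calls were kept without each library in turn.

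Besides Gsr, the list of other glutathione peroxidases and glutathione enzymes had 1 risen and 1 fallen of 10 tested at 20 weeks, where 4.79% and 5.13% of all genes did. At 28 weeks 3 of its 10 tested genes rose and 1 fell (Gsr), where 9.33% and 11.9% of all genes did. The median log2 fold change of the list was -0.14 at 20 weeks and -0.38 at 28 weeks, beside 0.01 and 0.07 over all genes. Gpx7 and Gpx8 are peroxidases of the endoplasmic reticulum. Gpx7 was at 18.2, 31.4 and 24.5 CPM in knockouts and 6.94, 6.45 and 13.97 CPM in controls at 20 weeks (log2 1.41, SE 0.35, adjusted p = 0.0421), and at 24.2, 28.8 and 20.1 CPM in knockouts and 6.59, 6.36 and 5.25 CPM in controls at 28 weeks (log2 2.04, SE 0.21, adjusted p = 0.00343). Gpx8 was at 203, 209.8 and 190.1 CPM in knockouts and 91.6, 97.5 and 101 CPM in controls at 28 weeks (log2 1.09, SE 0.11, adjusted p = 0.00326). Both calls at 28 weeks outlasted the loss of any 1 library. The call of Gpx7 at 20 weeks ended without control 1 (1.21, adjusted p = 0.152), control 2 (1.24, 0.129), knockout 2 (1.22, 0.12) or knockout 3 (1.45, 0.103). Keeping genes at 1 CPM in 3 libraries ended it too (1.35, adjusted p = 0.0516). Gsto1, a glutathione transferase of the omega class, was lower at 20 weeks, at 159, 171 and 152 CPM in knockouts against 265, 503 and 262 CPM in controls (log2 -1.12, SE 0.27, adjusted p = 0.0393). That call was kept without control 3 and ended without any other library (log2 -1.31 to -0.71, adjusted p 0.0585 to 0.128).

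Peroxiredoxins and thioredoxins had 0 called of 14 at 20 weeks by edgeR, with 6 at an unadjusted p below 0.05 and 2 called by DESeq2, where Txnrd1 (log2 -0.63, adjusted p = 0.0553) and Srxn1 (-0.53, adjusted p = 0.0822) had the smallest p. At 28 weeks 2 rose and 2 fell, where 9.33% and 11.9% of all genes did. Prdx4, a peroxiredoxin of the endoplasmic reticulum, was at 60.7, 79.5 and 68.8 CPM in knockouts and 34.5, 36.4 and 36.2 CPM in controls (log2 1.00, SE 0.13, adjusted p = 0.00605). Txnrd3, a thioredoxin reductase, was at 8.73, 8.60 and 9.23 CPM in knockouts and 20.9, 18.7 and 17.9 CPM in controls (log2 -1.09, SE 0.15, adjusted p = 0.00618). Both were kept without each library in turn. Txnrd1, the cytosolic thioredoxin reductase, was at 262, 237 and 318 CPM in knockouts and 518, 430.4 and 440.0 CPM in controls at 28 weeks (log2 -0.74, SE 0.16, adjusted p = 0.0207). Its call ended without control 1 (-0.63, adjusted p = 0.0515), control 2 (-0.81, 0.0576), control 3 (-0.79, 0.0671) or knockout 2 (-0.67, 0.0587), and with controls 2 and 3 summed (-0.80, 0.0614).

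NRF2, encoded by Nfe2l2, is the transcription factor that switches on many antioxidant genes. In its list of 20, 1 fell at 20 weeks (Gsr), where 5.13% of all genes did. At 28 weeks 3 fell (Gsr, Txnrd1 and Nfe2l2 itself), where 11.9% did. Gsr and Txnrd1 are also counted in the lists above. By edgeR 0 rose at either age, where 4.79% and 9.33% of all genes did. By DESeq2 0 rose and 4 fell at 20 weeks, where 1135 rose and 1266 fell of all 23794 genes tested. At 28 weeks DESeq2 had 1 risen and 4 fallen, where 1912 rose and 2354 fell of 23722. Nfe2l2 was at 104, 96.5 and 129 CPM in knockouts and 199, 164 and 167 CPM in controls at 28 weeks (log2 -0.66, SE 0.15, adjusted p = 0.0272). That call was kept without knockout 3 and ended without any other library (log2 -0.73 to -0.54, adjusted p 0.0552 to 0.08), and with controls 2 and 3 summed (-0.72, 0.0706). The median log2 fold change of the list was -0.16 at 20 weeks and 0.02 at 28 weeks, beside 0.01 and 0.07 over all genes. Among 7 relatives and regulators of Txnip, Arrdc1, an arrestin-domain relative, was lower at both ages (log2 -0.93, SE 0.18, adjusted p = 0.0191 at 20 weeks, and -0.92, SE 0.14, adjusted p = 0.00732 at 28 weeks). Dropping any 1 library left the later call in place, and that at 20 weeks ended without control 1 (-0.81, adjusted p = 0.0652), control 2 (-0.93, 0.0772) or knockout 3 (-0.85, 0.0826). Mlxip, a glucose-sensing transcription factor that acts on the Txnip gene, was at 26.9, 32.3 and 31.3 CPM in knockouts and 72.4, 69.6 and 54.9 CPM in controls at 28 weeks (log2 -1.09, SE 0.16, adjusted p = 0.007), and was kept without each library. Of 4 copper chaperones and transporters (Ccs, Atox1, Atp7a and Slc31a1), 0 passed at 20 weeks in edgeR, with 0 at an unadjusted p below 0.05 and 0 called by DESeq2. Atox1, a copper chaperone, was at log2 -0.26 there (adjusted p = 0.385) and Slc31a1 at 0.13 (adjusted p = 0.706). Slc31a1, the copper importer, was called at 28 weeks (log2 0.34, SE 0.09, adjusted p = 0.0485) and lost the call without any 1 of the 6 libraries (log2 0.28 to 0.37, adjusted p 0.105 to 0.194), as it did with RLE scaling (0.35, 0.0531), without a filter (0.33, 0.129), with controls 2 and 3 summed (0.34, 0.161) and in the model of 12 libraries (0.31, 0.125).

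**Figure D5:**
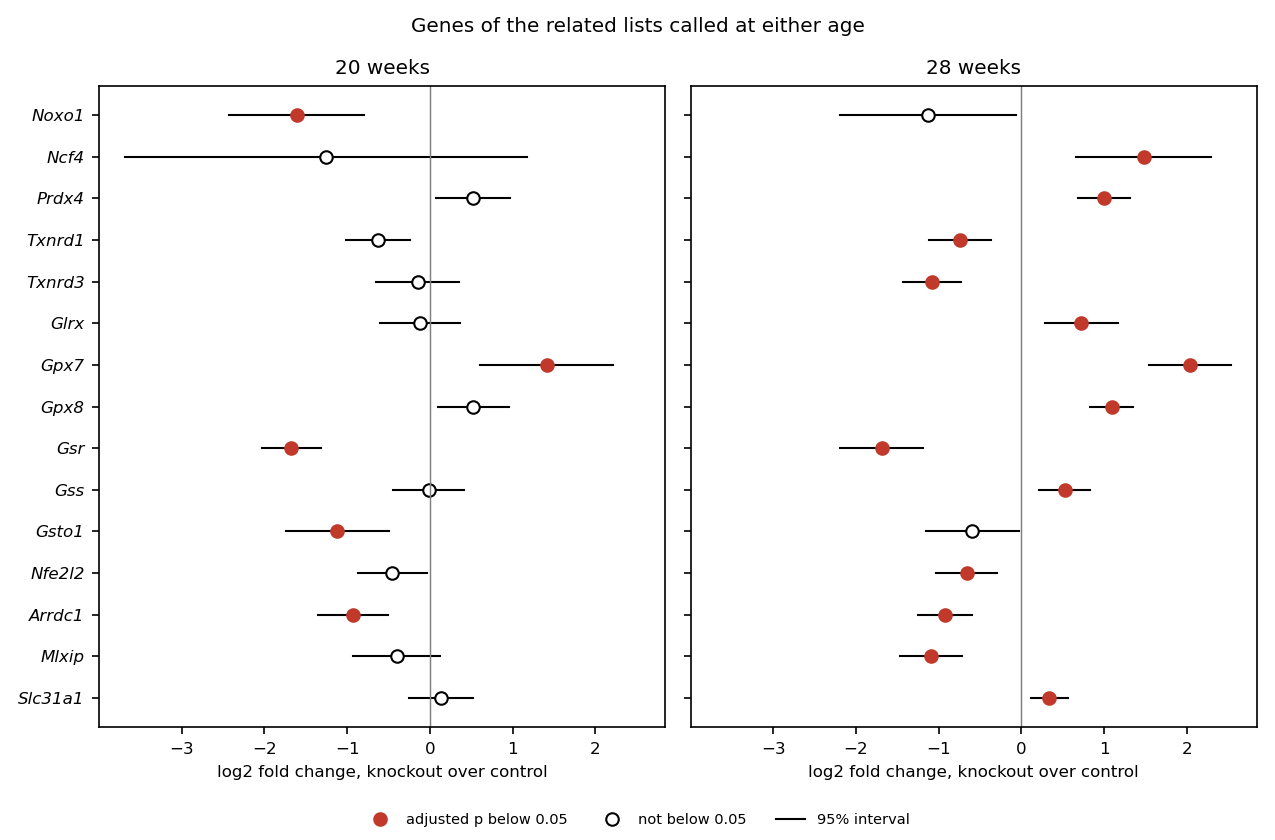
Log2 fold change of knockout over control with its 95% interval, not adjusted for the number of genes, for the 15 genes of the 6 pathway lists called at either age, at 20 weeks (left) and 28 weeks (right). Filled red points had an adjusted p below 0.05. Gsr lies at -1.68 and -1.69, and Gpx7 lies above 0 at both ages.

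Genes like Gpx1, Sod3 and Cybb in pattern were found by Pearson correlation of log2 CPM over the 12 libraries. The search covered 10550 genes tested at both ages with a mean level of 5 CPM or more. Predicted and unnamed genes were passed over. For Gpx1 the most alike were the ribosomal protein genes Rpl6 (r = 0.97), Rps4x (0.96) and Rps26 (0.96). Rpl6 averaged 561 CPM in knockouts and 769 CPM in controls at 20 weeks, and 636 CPM in knockouts and 715 CPM in controls at 28 weeks. For Sod3 they were Fez1, Rftn2 and Dkk3 (r = 0.96 each), and for Cybb Mlkl (0.95), the chemokine gene Ccl6 (0.93) and Hs2st1 (0.92). These values describe 12 libraries that share 4 groups, so they contain the differences between groups.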

How the data were processed

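The authors deposited raw read counts per gene symbol and an FPKM table for each age, per the file headers; FPKM divided each count by a gene length and the column total, with the same length in all libraries of a gene. The genome build was GRCm38 (mm10), per the submitters' processing notes; the aligner, counter and strand setting were not stated in any source used here. RNA came from a Qiagen RNeasy kit and libraries from a SMARTER mRNA kit, per the labels' protocols, and the labels give all libraries 1 batch.

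Each age was fitted alone in edgeR 4.0.16 (R 4.3.3) with TMM scaling, filterByExpr, the quasi-likelihood test and Benjamini-Hochberg adjustment; all adjusted p-values are from this test unless DESeq2 1.42.0 is named. Standard errors were derived from each log2 fold change and its F statistic. Contrasts with age used 1 model of 12 libraries over genes in both tables. The fit was tested on simulated data. Depth allows a gene with 0 reads a level of up to 0.0769 to 0.0955 CPM, taking 3 counts as the limit, which covers counting error only. With 3 against 3 libraries an exact permutation test cannot go below p = 0.1, so none was used.

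A further gene was taken out of the lists and is not reported here. The 10 genes and the lists were chosen with earlier results of these data known. Named are the 10 genes, Nsd2, up to 3 called genes per pathway list and age (otherwise 2 with the smallest p), and the most abundant markers. Ncf1, Ncf4 at 20 weeks, Noxo1 at 28 weeks, Nphs1, Ptprc, Csf1r, Aqp1, Adgre1, Tyrobp and Fcer1g were added after their values were seen. Alternatives were DESeq2, RLE scaling, other filters, the replicate block, the model of 12 libraries, controls 2 and 3 at 28 weeks summed, and leaving out each library. The main fits did not pair libraries by replicate number. Correlations of same-numbered deviations from the group means were -0.10, 0.32 and -0.17 at 20 weeks and -0.57, -0.10 and -0.47 at 28 weeks. With 3 libraries per group these cannot exclude a pairing.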

Additional observations from a re-analysis of the deposited data

How the results depend on the processing

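The number of the 10 genes called at 20 weeks was 1, and 3 with DESeq2 (Cat, Gpx1 and Sod3), 0 without a filter on low counts, 1 under the other alternatives and 0 to 1 on leaving out 1 library. At 28 weeks it was 2, and 0 with controls 2 and 3 summed, 1 in the model of 12 libraries (Sod3), 1 with the replicate block (Cybb, with Sod3 at adjusted p = 0.0963) and 0 to 2 on leaving out 1 library. The counts for the change of the knockout effect and for age were 0 under all their alternatives. Correlations of same-numbered libraries (-0.57 to 0.32) showed no pairing by replicate number, but with 3 libraries per group they cannot exclude it. With the replicate number as a block the calls over all genes numbered 1164 at 20 weeks (1473 without it) and 332 at 28 weeks (3183 without it). Nsd2, Ncf4, Txnrd1, Txnrd3, Prdx4, Gpx8, Nfe2l2, Arrdc1, Mlxip and Slc31a1 lost their calls at 28 weeks with this block. With controls 2 and 3 summed 1299 were called at 28 weeks. DESeq2 called 2401 at 20 weeks, and leaving out 1 library gave 517 to 2023 at 20 weeks and 1266 to 3374 at 28 weeks. The cause of these shifts was not tested.

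Some values that did not pass changed sign. Txnip at 20 weeks was at -0.0016 with RLE scaling, -0.059 with 1 CPM in 3 libraries, -0.0093 with the block and -0.036 in the model of 12 libraries, and at 28 weeks at -0.019 with controls summed and -0.023 in that model. At 20 weeks Sod1 was at 0.013 and Sod2 at 0.0064 without a filter, and Cybb at 0.046 with the block. On leaving out 1 library at 20 weeks the values ran from -0.36 to 0.021 for Cyba, -1.28 to 1.34 for Cybb, -0.22 to 0.16 for Sod1, -0.17 to 0.14 for Sod2, -0.80 to 0.31 for Gpx3, -0.092 to 0.16 for Txnip and -1.79 to 0.84 for Ncf4 (-1.26 with all libraries). At 28 weeks they ran from -0.10 to 0.27 for Nox4, -0.082 to 0.040 for Txnip and -0.10 to 0.23 for Srxn1. Gpx1, Sod3 and Cat kept their sign at both ages under all alternatives. Sod3, at 14 to 112 counts per library, is limited by depth.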
